A study of Mus musculus with 5 samples.

Results

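The atrioventricular canal (AVC) is the ring of heart wall that joins atria to ventricles, and its endocardial cushions later give rise to valves and septa. The transcriptome described here is that of AVCs labelled wild-type (WT), and it consists of the 13575 transcripts that stood at 1 nFPKM or more in the WT value, 92.4% of the 14697 transcripts in the deposited table. FPKM counts sequenced fragments per transcript length and per mapped total, and nFPKM is the authors' further normalized form of it, so levels of different genes are given per length. The study also holds a Sox9 mutant AVC and chromatin samples, which are not used here. The WT mice were C57BL/6 embryos at embryonic day 12.5 of genotype Sox9 fl/fl without Cre, so they carried floxed Sox9 alleles. Their AVCs were cut from the hearts by hand and pooled, and the labels list mesenchyme, endothelium and myocardium as the cells taken. Total RNA gave 2 libraries per genotype, and the table holds 1 merged value per transcript. The spread between libraries and the depth behind each value are therefore unknown, no level has an error, and no test was possible: every result below is a description of 1 value per transcript.

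At this stage the cushions are filled by mesenchyme that arises from endocardium by an epithelial-to-mesenchymal transition, which BMP, TGF-beta and Notch signals control. The myocardium around them conducts slowly and delays the impulse between the chambers, and the epicardium covers the outside. In bulk tissue, fewer cells of a type and less RNA per cell cannot be told apart, so a level below is a property of the whole dissected mixture.

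All 6 genes used as markers of this tissue were above the minimum. Postn, a matrix protein of cushion mesenchyme, stood at 973 nFPKM and at rank 83 of all transcripts. Twist1, a transcription factor of cushion mesenchyme, was at 75.7 (rank 2274), and Nfatc1, a transcription factor of valve endocardium, at 46.2 (rank 4031). Sox9, which valve mesenchyme and cartilage require, was at 36.7 (rank 5034). Tbx3, a repressor of chamber genes in conduction myocardium, was at 29.2 (rank 6076), and Wt1, a transcription factor of epicardium, at 14.5 (rank 8798). Wt1 was the only one of the 6 below the median of all transcripts, 24.7 nFPKM. Passing the minimum says little in itself, since 92.4% of all rows did, and the ranks give the levels. Epicardium is not among the cells that the labels name.

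Promoters are shown for 5 abundant genes that the levels below turn on, because they differ in whether they hold the exact letters TATAAA. These letters are a form of the TATA box, a core promoter motif. Each sequence is the 60 bases before a start site in RefSeq (build GRCm38.p6), read along the gene's strand, with TATAAA in capitals where it occurs. The genes are the embryonic globins Hba-x and Hbb-y, the alpha globin Hba-a2, the natriuretic peptide gene Nppa and, for its 2 annotated starts, Postn.
Hba-x, chr11:32276540-32276599, plus strand: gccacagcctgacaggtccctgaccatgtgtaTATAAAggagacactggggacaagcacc
Hbb-y, chr7:103853208-103853267, minus strand: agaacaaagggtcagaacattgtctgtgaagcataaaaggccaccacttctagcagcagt
Hba-a2, chr11:32296432-32296491, plus strand: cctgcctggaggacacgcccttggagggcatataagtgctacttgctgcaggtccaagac
Nppa, chr4:148000662-148000721, plus strand: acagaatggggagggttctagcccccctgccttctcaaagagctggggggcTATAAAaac
Postn, the first start, chr3:54359207-54359266, plus strand: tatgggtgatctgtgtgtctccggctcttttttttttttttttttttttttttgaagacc
Postn, the second start, chr3:54361047-54361106, plus strand: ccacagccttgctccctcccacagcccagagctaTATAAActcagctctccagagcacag

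The exact letters TATAAA were in the windows of Hba-x (7403 nFPKM), Nppa (2672) and the second start of Postn, and not in those of Hbb-y (26865), Hba-a2 (4419) or the first start of Postn. Close variants, such as cataaa in Hbb-y and tataag in Hba-a2, were not counted, so a window without TATAAA may still hold a TATA box. A promoter of 300 bases (250 before to 50 after the start) was matched by symbol for 10728 of 13573 member symbols. On either strand, TATAAA was found in 251 of 2789 promoters of transcripts at 1 to 10 nFPKM, in 6.03% at 10 to 100, 10.1% at 100 to 1000 and 13.2% at 1000 or more, beside 14.2% of all 27025 genes in the promoter table. GGGCGG, the core of a GC box, was found on either strand in 53.4%, 68.6%, 68.2% and 39.6% of the same classes, beside 35.9% of the table. CCAAT was found in 37.6%, 38.5%, 43.1% and 45.3%, beside 37.9% of the table. The highest class, with only 53 matched promoters, thus had the largest share with TATAAA and the smallest with GGGCGG of the 4 classes. Within 50 to 15 bases before the start and on the gene's strand, where a TATA box normally lies, TATAAA was found for 2 of these 53 genes, Hba-x and Vim (3.77%, beside 1.49% of all matched members and 2.56% of all genes in the promoter table). In Nppa the letters lie closer to the annotated start. For genes with several annotated starts, the first one listed was used in these shares. A match is a count of letters and does not show that a site is used.

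The table has 10 rows for microRNA hairpins at 1 nFPKM or more, and the mature sequences from the 3 highest rows are shown with the seed (bases 2 to 8, which pair with targets) in capitals (RefSeq, build GRCm38.p6).
miR-682: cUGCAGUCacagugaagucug
miR-703: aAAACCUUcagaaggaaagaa
miR-322-5p: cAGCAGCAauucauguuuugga
miR-322-3p: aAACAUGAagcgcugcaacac
The row for Mir682 stood at 4915 nFPKM, for Mir703 at 1359 and for Mir322 at 147. These 4 seeds all differ, and that of miR-322-5p is the seed of the miR-15 and miR-16 family. The other 7 hairpin rows lay between 1.89 (Mir223) and 44.2 nFPKM (Mir6236). These rows span about 100 bases each (96 for Mir682 and 95 for Mir322), and a hairpin row does not measure the mature microRNA.

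Few transcripts made up most of the summed abundance. The summed nFPKM of the 13575 transcripts was 960769, of which the 10 highest held 14.8%, the 100 highest 32.3% and the 1000 highest 58.6%, and 543 transcripts held 50% of it. The median was 24.7 nFPKM, with quartiles at 8.79 and 54.2, while the mean was 70.8. Most transcripts were of medium level: 8236 (60.7%) lay between 10 and 100 nFPKM and held 31.8% of the sum. Above these, 1558 transcripts lay between 100 and 1000 and held 36.2%, and the 80 at 1000 or more held 30.3%. Another 3701 transcripts lay between 1 and 10 nFPKM and held 1.66%. Transcripts with protein-coding RefSeq identifiers were 12937 of the members and held 85.5% of the sum.

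**Figure D1:**
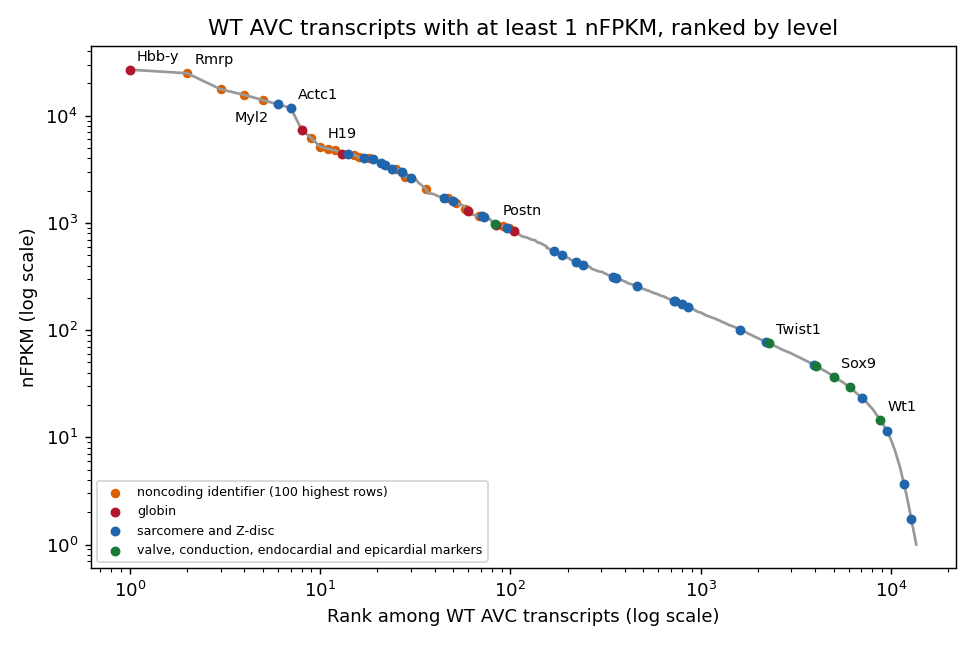
Level of each WT AVC transcript in nFPKM (log scale) against its rank (log scale), with coloured points for noncoding transcripts among the 100 highest rows, globins, sarcomere genes and the 6 marker genes. Hbb-y is highest at 26865 nFPKM, and the marker genes run from Postn at 973 down to Wt1 at 14.5.

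The minimum cut through a continuous range. Just inside it lay Hgfac (1.00 nFPKM), Gad2 (1.00), Arhgef37, Slc22a18 and Xaf1 (1.00), and just outside lay 2900005J15Rik (0.999), Kcnf1 (0.998), 1700001C19Rik, Asb18 and Cntn1 (0.996). The 1122 transcripts below it reached down to 0.0117 nFPKM, and none was at 0.

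The most abundant transcripts belonged to blood, to structural RNAs and to the contractile apparatus. Hbb-y, an embryonic beta globin, was highest at 26865 nFPKM. The next 4 rows were noncoding: Rmrp, the RNA of the RNase MRP complex, at 24893, Rpph1, the RNA of RNase P, at 17648, Scarna10, a small Cajal body RNA, at 15612, and Snord83b, a small nucleolar RNA, at 13988. Myl2 (12815) and Actc1 (11825), a myosin light chain and the cardiac alpha actin, ranked 6 and 7. Hba-x, an embryonic alpha globin, followed at 7403, then Snord22 at 6166 and H19, an imprinted long noncoding RNA, at 5136.

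By class, small noncoding RNAs held the largest share of the summed nFPKM, 12.1% over 55 rows. The 33 sarcomere genes held 6.57%, the 6 globins 4.35%, the 82 subunits of oxidative phosphorylation 4.14% and the 83 cytosolic ribosomal proteins 2.32%. Histones (67 genes) held 1.76%, imprinted genes (19) 1.59%, cytoskeletal genes such as Actb and Vim (13) 1.32%, translation factors (51) 1.28% and extracellular matrix (36) 1.06%. Chaperones held 0.971%, glycolysis 0.736%, calcium handling and natriuretic peptides 0.691%, proteasome subunits 0.622%, hnRNP and SR splicing factors 0.603% and tubulins 0.374%. These classes with the mitochondrial ribosomal proteins (0.553%) came to 666 genes and 41.1% of the sum. The other 12909 transcripts held 58.9%. A share here is of abundance per length and not of reads.

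**Figure D2:**
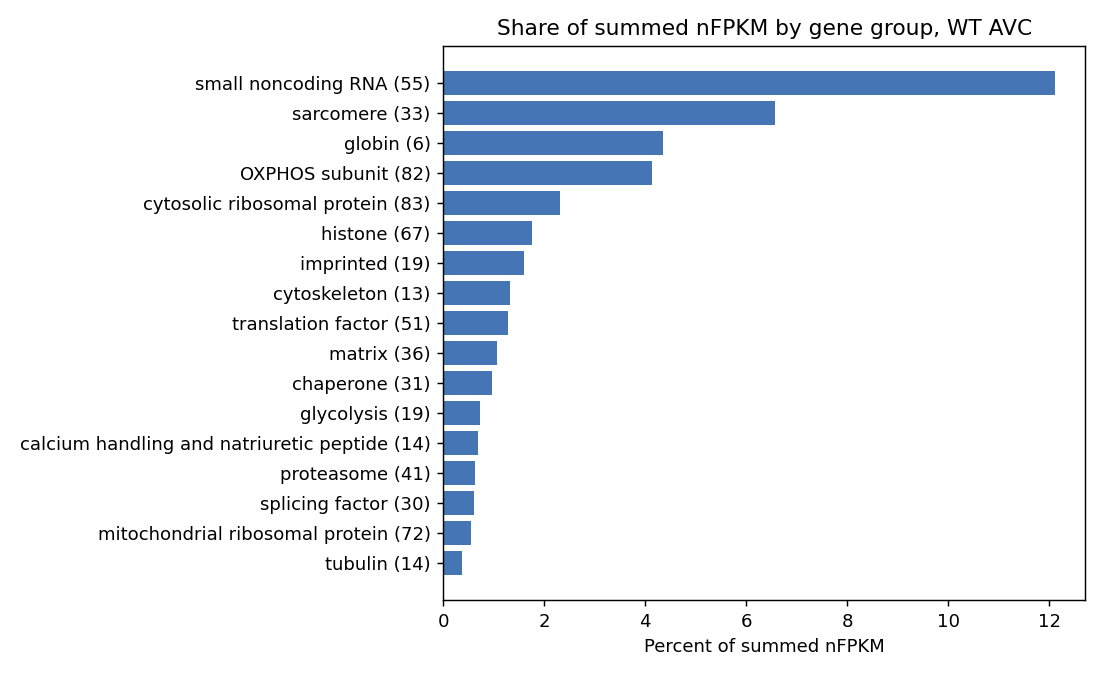
Percent of the summed nFPKM of all transcripts with at least 1 nFPKM that each gene class holds in WT AVC, 1 bar a class. Small noncoding RNAs hold 12.1%, sarcomere genes 6.57% and globins 4.35%.

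The noncoding rows of the shortest genes were the highest. The 53 rows whose gene spans at most 300 bases of genome were all noncoding and had a median of 298 nFPKM. The median was 8.72 for 44 noncoding rows that span 300 to 1000 bases and 3.37 for 509 that span more. The short rows held 10.3% of the sum. The 455 transcripts that RefSeq classes as long noncoding RNAs were low, with a median of 3.32 nFPKM. Their highest member was the nuclear RNA Malat1 at 2680.2, and H19, whose identifier in the table has no match in RefSeq, was higher still. FPKM divides by transcript length, whereas the span counts introns too. The part of length in these values was not tested. No row of the table carries the name of a gene encoded by mitochondrial DNA.

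Red blood cell transcripts were high, and embryonic globins exceeded adult ones. Globin chains pair as alpha and beta in haemoglobin, and embryonic red cells use the embryonic genes Hba-x, Hbb-y and Hbb-bh1. Hbb-y and Hbb-bh1 (1291) together came to 28156 nFPKM, 15.7 times the sum of the adult-type genes Beta-s (964) and Hbb-b1 (835). Among alpha chains, Hba-x at 7403 was 1.68 times Hba-a2 at 4419. The summed alpha globins (11822 nFPKM) were 0.395 times the summed beta globins (29955). Adult globin genes come as near-identical copies. Hba-a1 and Hbb-b2 have no row in the table used here, so how reads were divided between copies is unknown and these ratios are uncertain. Outside the globins, Alas2, the first enzyme of haem synthesis in red cells, was at 128 and Slc4a1, the anion exchanger of their membrane, at 119. The transcription factors of their precursors were low, with Klf1 at 4.94 and Gata1 at 3.19. In all, 14 of 17 erythroid genes were at 1 nFPKM or more with a median of 66.6, which becomes 13.5 if Hba-a1, Hbb-b2 and Ahsp, with no row, count as 0.

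Heart muscle genes had the highest median and the largest share of the sum of the cell type lists that held more than 1 present gene. All 25 cardiomyocyte genes were above the minimum, 23 of them at 100 nFPKM or more, with a median of 1155 nFPKM, and they held 6.52% of the sum. The thin filament genes were Actc1 (11825), Tnnt2 (4047), the tropomyosin Tpm1 (3605), Tnni1 (2989) and Tnnc1 (2600.2). The 3 troponin subunits occur in equal number in the filament, and Tnnt2 was 0.983 times the sum of the inhibitory subunits Tnni1 and Tnni3 (4119). Tnnt2 was 1.56 times Tnnc1, the calcium-binding subunit. The fetal Tnni1 was 2.65 times the adult-type Tnni3, and cardiac Actc1 was 46.3 times skeletal Acta1 (255).

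In the thick filament, the beta heavy chain Myh7 (3445) was 2.01 times the alpha heavy chain Myh6 (1717). Each myosin heavy chain carries 1 essential and 1 regulatory light chain. The regulatory chains Myl2 and Myl7 (4384) together were 3.33 times both heavy chains, and the essential chains Myl3 (3197) and Myl4 (3972) together 1.39 times. Light chain transcripts per length thus exceeded heavy chain transcripts, the regulatory ones by more. The giant spring protein of the sarcomere, Ttn, was lower at 314. The lowest sarcomere members were Myom2 (3.64), Mybpc2 (1.73) and, below the minimum, the embryonic skeletal myosin Myh3 (0.374).

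Both atrial and ventricular muscle genes were present in the dissected canal. The ventricular-type Myl2 was higher than the atrial-type Myl7, with a Myl7 to Myl2 ratio of 0.342, while the atrial and fetal Myl4 was 1.24 times the ventricular Myl3. Myl7 at this age is also made in ventricles, so these ratios do not divide the sample into chambers. All 10 atrial genes (median 77.5) and all 8 ventricular genes (median 73.2) were above the minimum, as were 92.4% of all rows. Nppa, a natriuretic peptide of chamber muscle, was at 2672, 9.70 times Nppb. Genes of chamber muscle, 14 of 14 present, had a median of 95.8 nFPKM, with Smpx at 501, the gap junction gene Gja1 at 331 and Gja5 at 158.

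The list of canal and conduction muscle had a lower median than that of chamber muscle, 37.7 nFPKM, with 13 of 14 genes present. The highest was Id2 at 281, an inhibitor of transcription factors that other cells also make, followed by Cacna2d2 at 107. Tbx18 (57.7) is also on the epicardial list and Msx2 (14.5) on the valve mesenchyme list. The gap junction gene of slow-conducting muscle, Gjc1, was at 94.7, and Gja1 of chamber muscle was 3.50 times higher. Hcn4, the pacemaker channel, stood at 38.3, Bmp2, the canal's BMP ligand, at 37.8 and Tbx2, a repressor of chamber genes like Tbx3, at 20.1. Isl1, a gene of cardiac progenitors and of the sinus node, was below the minimum at 0.709. Canal muscle and neighbouring chamber muscle in the dissected tissue cannot be told apart in these values.

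Of 15 genes of calcium handling and natriuretic peptides, 14 were present with a median of 131 nFPKM, and 12 lay above the all-transcript median. Atp2a2, the calcium pump of the sarcoplasmic reticulum, was at 1145 and its inhibitor Pln at 669. Calr, a calcium-binding chaperone, was at 910.2, the sodium-calcium exchanger Slc8a1 at 441 and the calcium release channel Ryr2 at 106. The receptors Npr2 (19.1) and Npr1 (15.7) lay below the all-transcript median, and the peptide gene Nppc was below the minimum at 0.381.

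**Figure D3:**
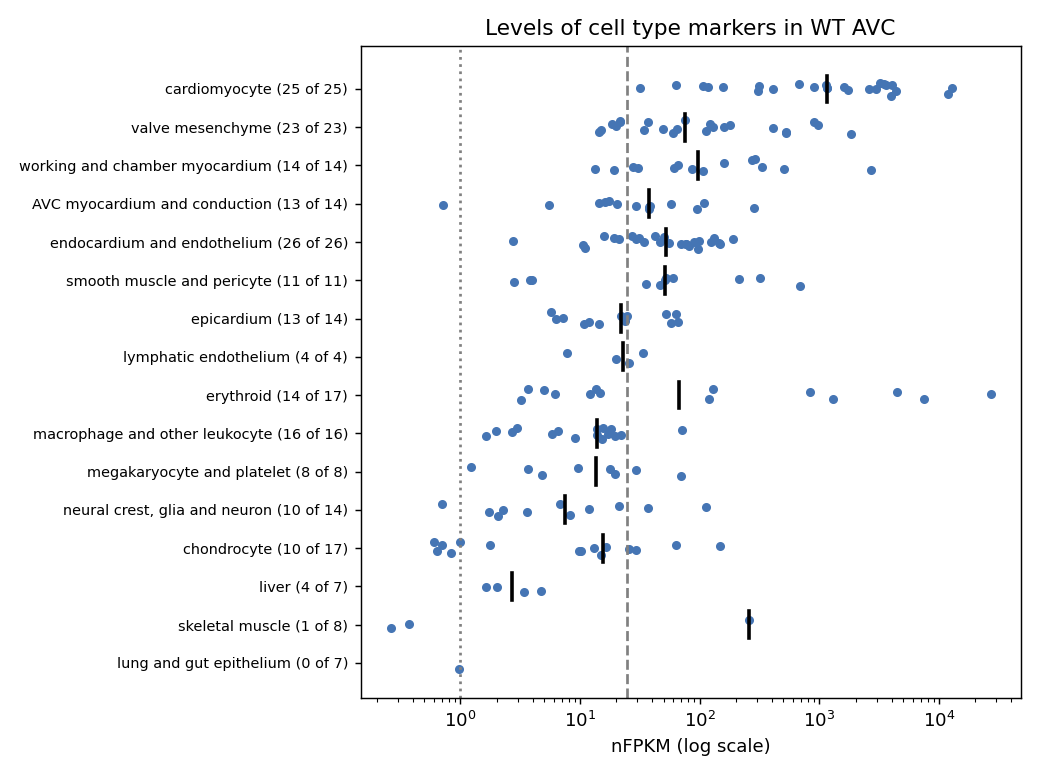
Level in nFPKM (log scale) of each gene in the cell type lists in WT AVC, 1 point a gene, with a black bar at the median of members with at least 1 nFPKM, a dotted line at 1 nFPKM and a dashed line at the all-transcript median of 24.7. The cardiomyocyte median is 1155 and the liver median 2.70.

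Genes of mitochondrial energy supply were mostly high. All 82 subunits of oxidative phosphorylation with a row were above the minimum, 70 of them at 100 nFPKM or more. Complex I, which takes electrons from NADH, had a median of 279 nFPKM over 36 subunits, complex II 413 over 4, complex III 447 over 9, complex IV 397 over 16 and the ATP synthase 629 over 15. The highest were the ATP synthase subunits Atp5b (3158) and Atp5a1 (2157). The lowest was Atp5g2 at 1.27. For complex IV, the liver-type isoforms prevailed over the muscle isoforms: Cox8b was 0.0625 times Cox8a, Cox7a1 0.239 times Cox7a2 and Cox6a2 0.529 times Cox6a1. The ADP/ATP carrier was mainly the muscle isoform Slc25a4 (2271), 3.55 times Slc25a5.

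Glycolysis genes, all 19 present, had a median of 196 nFPKM. Aldoa (1882), Ldha (1171), Tpi1 (942) and Pkm (803) were highest, and the neuronal-type isoforms Aldoc (9.57) and Eno2 (4.92) lowest. The lactate dehydrogenase gene Ldha was 4.54 times Ldhb. The muscle enolase Eno3 was 1.40 times Eno1, whereas the brain creatine kinase Ckb was 1.59 times the muscle Ckm (62.8).

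Ribosomal protein genes, most of whose products occur in equal number in the ribosome, did not have equal levels. The set also holds ribosomal protein-like genes, such as Rpl39l, Rpl7l1 and Rps27l, to which equal number need not apply. Among 83 genes above the minimum the level at the 10th percentile was 7.26 nFPKM and at the 90th 705, a ratio of 97.1. The same ratio was 6.35 for 72 mitochondrial ribosomal proteins and 13.1 for 41 proteasome subunits. Rpl41 (2545) and Rpl8 (1716) were among the highest, and Rps13 (1.08), Rpl23a (1.41) and Rpl24 (1.53) lowest, with Rpl39l below the minimum at 0.607. Many of these genes have processed pseudogenes, near-identical copies elsewhere in the genome that can share reads with the parent gene. The median level was 215 nFPKM for 19 genes with no pseudogene named after them in RefSeq, 93.0 for 30 genes with 1 or 2 and 55.0 for 35 genes with 3 or more. Across the 84 genes with a row, which share libraries and are not independent, Spearman's rho between level and that number was -0.346. Pseudogenes under names not taken from the gene were not counted, so the number of copies can be larger. Rpl24 and Rpl11 (2.02) were low and have no pseudogene named after them, which does not show that they have none. Whether shared reads bear on these levels was not tested.

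Genes outside the ribosome with named pseudogenes had very different levels. The glycolysis enzyme Gapdh, commonly used as a reference, was at 86.3 nFPKM with 3 named pseudogenes, below Aldoa and Tpi1, and Tpt1, an abundant growth-related protein, was at 28.0 with 7. The translation factor gene Eef1a1 was at 3734 with 2 and the actin gene Actb at 2348 with 1. Genes with 0 named pseudogenes differed too, with Ppia at 35.2 and Fth1 at 962. Pseudogenes under other names are not in these numbers, and a link between the numbers and these levels was not tested. The 90 rows that RefSeq classes as transcribed pseudogenes had a median of 4.47 nFPKM, and the highest were Rpl14-ps1 (889), Gm12338 (655) and Gm1821 (287). The sources used here do not say how the authors' counting treated reads that match several places, and levels of such genes are uncertain.

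**Figure D4:**
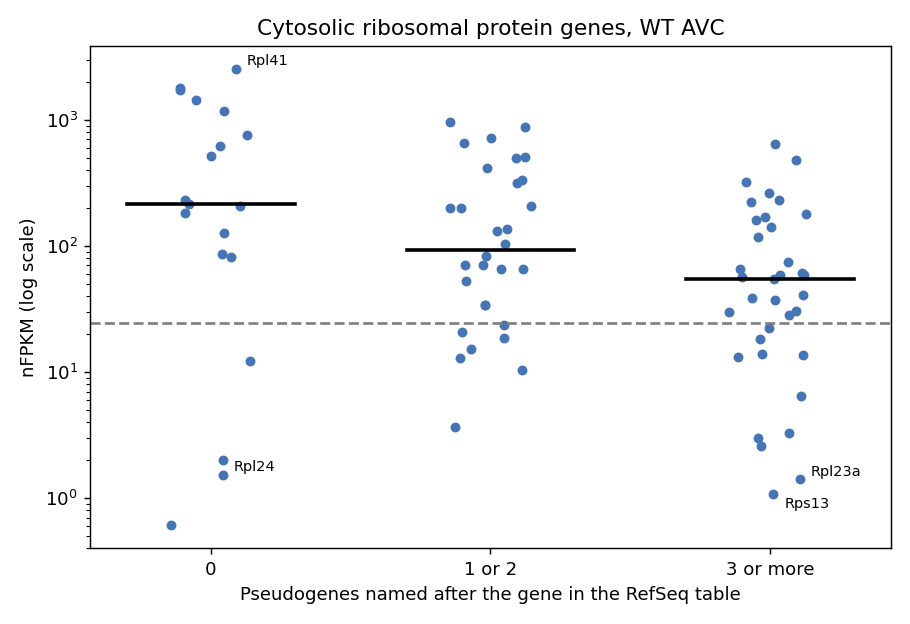
Level in nFPKM (log scale) of 84 cytosolic ribosomal protein genes in WT AVC, 1 point a gene, by the number of pseudogenes that RefSeq names after the gene, with a black bar at each median and a dashed line at the all-transcript median of 24.7. The medians are 215, 93.0 and 55.0, and low points occur in all 3 groups. Pseudogenes under other names are not counted.

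The listed genes of extracellular matrix, which gives the cushion its bulk, were all above the median transcript. This list is not particular to the valve and includes genes of basement membrane, such as Col4a1. All 36 were present, 30 of them at 100 nFPKM or more, with a median of 181 nFPKM. Postn (973), the fibrillar collagen Col3a1 (905), the collagen-binding Sparc (823), Fstl1 (758), fibronectin (Fn1, 722) and the large proteoglycan versican (Vcan, 529.6) were highest. Col6a3 (37.0) and the hyaluronan synthase Has2 (34.0) were lowest. Genes taken by symbol were lower: 32 of 36 collagen chains with a row were present with a median of 27.3, and 10 of 11 laminin chains with a median of 35.1. Collagen I contains 2 alpha1 chains for each alpha2 chain, and Col1a1 (526) was 1.29 times Col1a2 (409). The basement membrane chain Col4a1 was 1.86 times Col4a2, and Col5a2 was 1.86 times Col5a1. The fetal fibrillin Fbn2 (289) was 1.74 times Fbn1 (166).

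Valve mesenchyme genes, all 23 present, had a median of 75.7 nFPKM, and 17 lay above the all-transcript median. Besides matrix genes, Vim (1840.3), an intermediate filament, Cdh11 (161), a cadherin of mesenchyme, and Pdgfra (130.1), a growth factor receptor, were high. Of the genes known from cartilage, 10 of 17 were present with a median of 15.7, which becomes 10.2 with members below the minimum and 9.78 with those without a row also counted, as 0. They included Hapln1 (149), which links hyaluronan to proteoglycans, and Col2a1 (63.2), while aggrecan (Acan, 0.829), Col10a1 (0.995) and Runx2 (0.634), genes of mature cartilage and bone, were below the minimum. Matn1 and Sp7 have no row in the table used here. Hapln1 and Col2a1 are also valve genes, so this list does not mark cartilage alone.

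Among regulators taken from heart and valve lists and from 7 gene families, most of the highest were heart factors. Other transcription factors were not ranked. Of the 111 with a row, 101 were present, with a median of 28.4 nFPKM, and only 6 reached 100. Of these 6, 5 are on the heart list, and Sox4 is on the valve list. Tbx20, required for both muscle and cushion growth, was highest at 539.7, followed by Gata4 (231), Mef2a (163), Sox4 (151), Gata6 (142) and Nkx2-5 (118). Hand2 (94.1), Tbx5 (76.5) and Srf (76.1) came next among heart factors. The 25 valve factors present had a median of 33.9 nFPKM. The highest of these valve factors was Sox4 (151). Smad6, an inhibitor of BMP signalling, was at 80.3, the epicardial and fibroblast factor Tcf21 at 65.1, Zeb1 at 62.0 and Prrx2 at 59.2. Snai1 (18.4) and Snai2 (21.4), which drive epithelial-to-mesenchymal transition, and Msx1 (20.0) and Msx2 (14.5) were below the all-transcript median. Meox2 was below the minimum at 0.949, and Tbx1 has no row in the table used here. HOX genes were at the bottom, with 4 of 7 present and Hoxb3 highest at 2.02.

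**Figure D5:**
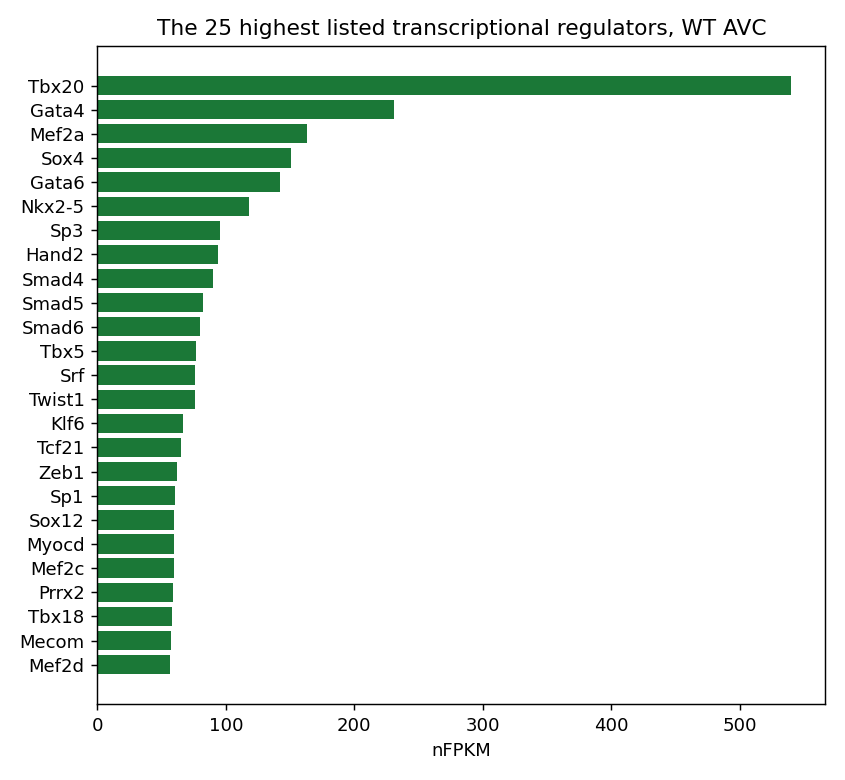
Level in nFPKM of the 25 highest listed transcriptional regulators in WT AVC, ordered by level. Tbx20 stands at 539.7, Gata4 at 231 and the 25th, Mef2d, at 56.8. The value for Mecom (57.3) is the sum of its transcripts at 50.6 and 6.66 nFPKM, each below Mef2d.

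Listed genes of signalling pathways were present about as often as all rows of the table (92.4%), and their levels are not particular to the cushion. For BMP and TGF-beta signalling 32 of 34 genes were above the minimum, with a median of 47.0 nFPKM. The BMP ligands were Bmp7 (90.2), Bmp10 (65.8), Bmp2 (37.8), Bmp4 (32.5), Bmp5 (26.1) and Bmp6 (15.8), and among TGF-beta ligands Tgfb2 (66.8) was above Tgfb1 (37.5) and Tgfb3 (27.5). Bmp10 is also on the list of chamber muscle genes. Receptors ran from Bmpr1a (152) and Tgfbr1 (109.7) through Bmpr2 (77.8), Acvr1 (56.1) and Tgfbr2 (42.5) down to Acvrl1 (7.22). The target genes Id2 (281) and Id3 (260.1) were the highest of the list, with Id1 at 74.0 and Id4 at 11.1. Of the secreted antagonists, Fst was at 12.3, Nog at 3.28 and Chrd below the minimum at 0.932, and Grem1 has no row in the table used here.

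The 18 Notch genes were all present with a median of 19.3. The receptors ran in the order Notch1 (43.5), Notch2 (36.5), Notch3 (21.1) and Notch4 (10.9). Jag1 (31.7) was the highest ligand and Hey2 (85.9), also on the lists of chamber and ventricular muscle genes, the highest target. For Wnt signalling 29 of 30 genes were present with a median of 23.2. Beta-catenin (Ctnnb1), which also joins cells, was far above the others at 701, the secreted inhibitor Sfrp1 was at 174, and Wnt5a (32.1) was the highest Wnt ligand. In the list of ErbB, VEGF and FGF signalling 21 of 24 were present with a median of 31.8, including Nrp1 (191), Vegfb (128), Vegfa (103) and Erbb2 (87.6). The neuregulin ligand Nrg1 was at 7.10, and Fgfr4 (0.772) and Fgf10 (0.582) were below the minimum, while Fgf8 has no row.

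All 26 endocardial and endothelial genes were present, 20 of them above the all-transcript median, with a median of 52.5 nFPKM. Ramp2 (188), the TGF-beta co-receptor Eng (148), the junction proteins Cdh5 (145) and Pecam1 (132) and the receptor Tek (124) were highest. Npr3 (89.8) and Emcn (77.1), enriched in endocardium, were close to the pan-endothelial VEGF receptor Kdr (80.9), which was 2.75 times Flt1. The lowest were Klf4 (10.9), Dll4 (10.6) and Sox17 (2.74). All 4 lymphatic genes were present with a median of 22.6, from Prox1 at 33.6, which heart muscle also makes, to Lyve1 at 7.81.

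Epicardial genes had a median of 22.0 nFPKM, with 13 of 14 present, led by Tcf21 (65.1), Upk3b (63.1) and Tbx18 (57.7). Muc16 has no row in the table used here. All 11 smooth muscle and pericyte genes were present with a median of 51.3, and 8 of them lay above the all-transcript median. Acta2 was at 689.8 and Tagln at 320.4, both of which embryonic heart muscle also makes. Cnn1 (213), Myocd (59.7), Smtn (52.4), Pdgfrb (51.3), Abcc9 (46.1) and Cspg4 (35.5) also lay above that median. The lowest were the pericyte gene Rgs5 (3.98), Kcnj8 (3.78) and Myh11, the myosin of mature smooth muscle (2.80).

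Transcripts of other blood cells and of nerve cells were present at lower levels. All 16 leukocyte genes were above the minimum with a median of 13.8 nFPKM, led by the lysozyme gene Lyz2 (70.6) and the complement gene C1qb (21.9), and Ptprc, carried by all white cells, was at 1.96. Platelet genes had a median of 13.6, led by Pf4 (70.2). In the list for neural crest, glia and neurons 10 of 14 were present with a median of 7.48, which becomes 2.94 with genes without a row counted as 0 and 11.9 with a minimum of 3 nFPKM. Its highest member, the endothelin receptor Ednrb (112), is made by other cells too. Mitf (37.0), Tubb3 (21.0), Erbb3 (11.9) and Dct (8.17) followed, and the neural crest factor Sox10 stood at 1.73.

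Few markers of other organs had a value of 1 nFPKM or more. Of 7 liver genes 4 were present with a median of 2.70 (1.63 with genes without a row counted as 0, 4.05 with a minimum of 3 nFPKM), the highest being Apoa2 at 4.70, and Alb, Serpina1a and Fgb have no row in the table used here. No lung or gut epithelial gene reached 1 nFPKM: Epcam was at 0.970, and the other 6 have no row. Of 8 skeletal muscle genes only Acta1, which heart muscle also makes, was present, and Myog was at 0.261. Genes with no row cannot be read as 0, since the table used here holds no value for them.

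Genes of cell division were mostly above the median. Of 34 cell cycle genes 33 were present with a median of 105 nFPKM, among them Cdk4 (644), the topoisomerase Top2a (333), Ccna2 (268) and the proliferation marker Mki67 (202). The inhibitor Cdkn1c, itself imprinted, stood at 509.9. Histone genes, all 67 present, had a median of 164 nFPKM.

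Imprinted genes, which are expressed from 1 parental allele and often regulate fetal growth, had a median of 161 nFPKM over 19 present of 21. H19 (5136) was 2.75 times Igf2 (1867), the fetal growth factor gene beside it. Mest (2523), Gnas (1748), Grb10 (1248) and Igf2r (1086) were above 1000 nFPKM as well. In another imprinted cluster, the noncoding Meg3 (161) was 10.7 times Dlk1 (15.0). Immediate early genes, which respond quickly when tissue is handled, had a median of 25.1 nFPKM over 15 present of 18, from Jund at 107, Jun at 71.0 and Ier3 at 47.4 down to Egr1 at 19.1, Fos at 5.71, Junb at 4.65 and Egr3 at 1.27. The X-linked Xist was at 175, and the Y-linked Eif2s3y (5.48), Ddx3y (4.26), Uty (1.67) and Kdm5d (1.45) were all above the minimum in this pool.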

How the data were processed

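RNA from pooled AVCs of WT embryos was read on 2 Illumina platforms (MiSeq, NextSeq), per the labels. The deposited values are FPKM that the authors normalized further and merged over duplicates, per the file headers. TopHat2, Cufflinks, edgeR and build mm9 are listed, with neither version nor role, in the submitters' processing notes. The sources used here do not describe the further normalization, and 1 column of mutant values was not used. Counts cannot be recovered from merged FPKM, so depth is unknown and no test was made.

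Ranks, medians (over list members at 1 nFPKM or more), shares of the summed nFPKM and ratios were computed with Python 3.11.15 and pandas 2.3.3, and the steps were tested on simulated data. Of the table's identifiers, 14567 matched RefSeq. The members and lists were chosen with earlier results of these data known. By rule, the 40 highest transcripts, the 6 markers, the 8 highest and 3 lowest of each list, markers without a value of 1, the 25 highest regulators and the 5 transcripts either side of 1 nFPKM could be named. Other named genes, all ratios, the list of small noncoding RNAs, some removals from symbol families and the pseudogene counts were chosen after values were seen. Some genes named by this rule are not reported here.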

Additional observations from a re-analysis of the deposited data

How the results depend on the processing

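The number of transcripts was 14436 with a minimum of 0.5 nFPKM, 12018 with 3, 12937 with protein-coding identifiers only and 13573 with transcripts summed by symbol. With no spread to compare, a share or median was called moved when it changed at 3 significant digits. Of the recomputed shares and medians, 41 kept their value in this sense and 40 moved. With protein-coding identifiers only, the share was 5.08% for globins, 7.68% for sarcomere genes, 4.84% for oxidative phosphorylation, 2.71% for ribosomal proteins and 1.24% for matrix. With globins left out of the sum, it was 12.7% for small noncoding RNAs, 6.87% for sarcomere genes, 4.33% for oxidative phosphorylation, 2.42% for ribosomal proteins and 1.11% for matrix. With no minimum it was 6.56% for sarcomere genes and 2.31% for ribosomal proteins. With a minimum of 3 nFPKM it was 4.36% for globins, 6.59% for sarcomere genes, 4.16% for oxidative phosphorylation and 1.07% for matrix, and the endothelial median was 54.8 nFPKM. The median for canal and conduction muscle was 33.4 nFPKM both with no minimum and with genes without a row counted as 0. That last setting gave 18.2 for epicardium, 13.5 for erythroid genes, 9.78 for cartilage genes, 2.94 for neural crest, glia and neurons and 1.63 for liver. Weighting by protein length was not run, since no protein sequences were used here. No replicate could be left out and no paired analysis was possible because the libraries were merged into 1 value. Unknown depth limits low levels most.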
